A study of Homo sapiens with 24 samples.

Results

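The difference between naive and primed human pluripotent cells was compared between the embryonic stem cell lines H9 and H1 as a line by state interaction. For each autosomal gene the interaction is the log2 change from primed to naive in H9 minus the same change in H1, so that a positive value means a change that was higher in H9 and a negative value a change that was lower in H9. The comparison took 12 of the 24 libraries of the study, all those in 4 groups of 3: primed H9, naive H9, primed H1 and naive H1. Both H1 groups carry the genotype label nontargeting and were treated with doxycycline, and they stand beside knockdown groups in the same table. The H9 groups list neither a genotype nor a treatment. The growth protocol names StemFlex medium for every library, those of the naive state included, and the labels name no separate medium for the naive cells. Line, nontargeting genotype, doxycycline and the table in which the counts were deposited change together between H1 and H9, so a difference in change called a line difference here cannot be told apart from a difference due to any of the others. The labels also do not say whether naive H9 and naive H1 were kept in the same naive condition, and KLF17, a defining naive factor, was at or near 0 in naive H9 and not in naive H1, so a difference between naive conditions cannot be told apart from line either. The labels do not say whether replicates came from separate cultures. If they did not, the spread behind the p-values may be only technical. Of 60671 genes in both tables, 55481 lie on autosomes, and 16265 of these passed the filter on low counts and were tested.

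Primed cells resemble the epiblast of the implanted embryo, rely on FGF and activin signals and express genes such as ZIC2, SFRP2 and THY1. Naive cells resemble the epiblast of the blastocyst, carry little DNA methylation in many cultures, and express KLF17, KLF4, DPPA3, DNMT3L and SUSD2. H1 and H9 are established lines derived from blastocysts of different embryos, and differences between lines in culture history, resetting and epigenetic marks are well known in the field.

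The 12 libraries held between 7317419 and 15504896 counts in all. Autosomal genes took 88.1% to 91.2% of the counts and mitochondrial genes 5.34% to 7.54%, with the highest mitochondrial shares in naive H9, between 7.40% and 7.54%. Levels are given below as CPM, the count of a gene scaled to a common depth of autosomal counts with TMM factors, log2 values carry the standard error (SE) of the fit, and a gene is called where edgeR's quasi-likelihood test gave a Benjamini-Hochberg adjusted p under 0.05 over all genes tested. The biological coefficient of variation over the fit was 8.35%, so small differences passed the test.

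The interaction was called for 8138 genes, 50% of those tested. The change was higher in H9 for 4335 genes (26.7%) and lower in H9 for 3803 (23.4%). For 7109 genes (43.7%) all 9 library differences between naive and primed in H9 lay on 1 side of all 9 in H1. A difference in change of at least 2-fold was called for 2251 genes (13.8%), of which 1362 were higher (8.37%) and 889 lower (5.47%) in H9. Within H9, 4155 genes rose and 4141 fell from primed to naive (25.5% each), and within H1, 5225 rose (32.1%) and 5550 fell (34.1%). Both lines had a called change for 6215 genes, and 4914 of these changed in the same direction, which is 59.2% of the calls in H9 and 45.6% of those in H1. The other 1301 changed in opposite directions. Among the 8138 interaction calls, 3129 (38.4%) had a called change in H1 and none in H9, 1857 (22.8%) changed the same way in both lines by more in H1, 1258 (15.5%) had a called change in H9 and none in H1, and 451 (5.54%) changed the same way by more in H9. The median absolute change was 0.62 in H1 and 0.41 in H9 on the log2 scale. Across genes, which are not independent replicates, the changes of the lines correlated with a Pearson r of 0.457 and a Spearman rho of 0.429, as a description over libraries that share a table within each line.

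**Figure D1:**
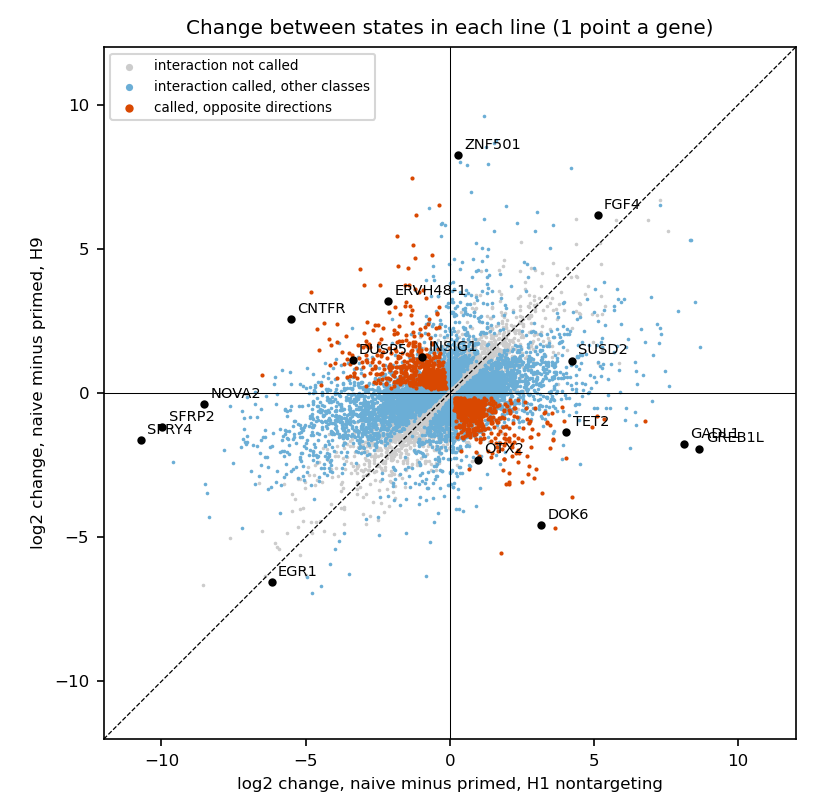
Log2 change from primed to naive in H1 (horizontal) and H9 (vertical) for the 15897 genes with counts in all 4 groups, 1 point a gene, with equal change on the dashed line. Points in orange are genes called in opposite directions. SPRY4, SFRP2 and NOVA2 lie far left because they fell much further in H1, and GREB1L and GADL1 lie at the lower right because they rose in H1 and fell in H9.

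Between the lines, levels stood further apart in the naive state than in the primed state. For the 2251 genes with a difference in change of at least 2-fold, the median gap between the line means was 1.84 in naive cells and 0.80 in primed cells (log2, pseudocount 0.1 CPM), and the gap was larger in naive cells for 1644 of them (73%). Over all genes tested the gap was larger in naive cells for 60.3%, with medians of 0.62 and 0.45. The sign of the interaction on linear CPM differed from that on the log scale for 245 of the 8138 calls (3.01%).

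Naive markers rose in both lines, and most of those measured reached higher levels in H1. Of 27 measured genes of the naive list, 21 rose and 1 fell in H9, and 24 rose and 2 fell in H1. The interaction was called lower in H9 for 13 (48.1%, against 23.4% of all genes) and higher for 7 (25.9%, against 26.7%), with a median of -0.25, or -1.17 when the genes with a group at 0 counts are set at their bound, beside 0.05 over all genes. Without replicate 1 of primed H1 the median was -0.84. In naive cells, 21 of the 27 had all 3 H9 libraries below all 3 H1 libraries, as did 34.3% of all genes tested. KLF17, at or near 0 outside naive H1, passed the filter on low counts only through that group. Genes that passed this way lie lower in naive H9 by that choice. These counts and medians are therefore no test of direction. The summed level of the list was 3805 to 3844 CPM in naive H1 and 1735 to 1796 CPM in naive H9, against 1037 to 1063 CPM in primed H1 and 894 to 933 CPM in primed H9. In these bulk libraries fewer cells of a type and less RNA per cell cannot be told apart.

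SUSD2, a surface protein used to sort naive cells, was at 9.54, 10.6 and 13.7 CPM in primed H9 and 22.1, 28.0 and 23.7 CPM in naive H9. The H1 libraries held 7.21, 5.61 and 7.40 CPM in primed cells and 131, 128 and 132 CPM in naive cells. It rose in both lines, with an interaction of -3.12 ± 0.19. KLF4 and KLF5, Krüppel-like factors of the naive network, gave -1.90 ± 0.25 and -1.88 ± 0.27. KLF4 stood at 19.1 to 21.1 CPM in naive H9 and 99.7 to 109 CPM in naive H1, and KLF5 at 11.9 to 16.7 and 203 to 219 CPM. Both rose in each line. DNMT3L, a catalytically inactive partner of the de novo DNA methyltransferases, reached 11.9 to 16.2 CPM in H9 and 54.4 to 64.6 CPM in H1 from at most 0.427 CPM in any primed library (-2.995 ± 0.72). IL6ST, the signalling chain shared by receptors of the LIF family, reached 17.5 to 21.8 CPM in naive H9 and 121 to 127 CPM in naive H1 (-2.36 ± 0.19).

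The defining factor KLF17 had no count in any primed library of either line. It stood at 11.7, 13.3 and 10.8 CPM in naive H1 and at 0, 0.124 and 0.106 CPM in naive H9, so it was at or near 0 in the H9 cells labelled naive. TBX3, a T-box factor of naive cells, had 98.5 to 106 CPM in naive H1 and 0.607 to 2.12 CPM in naive H9. OLAH, a thioesterase of fatty acid synthesis, stood at 24.6 to 31.5 CPM in naive H1 and 0.531 to 0.870 CPM in naive H9. Other members of the list were high in naive H9. NLRP7, a maternal-effect gene, stood at 2.54 to 2.90 CPM in primed H9 and 172 to 176 CPM in naive H9, and its interaction was not called (0.23 ± 0.18, adjusted p = 0.3). TFAP2C also rose in both lines, to 114 to 120 CPM in naive H9 and 207 to 225 CPM in naive H1.

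A smaller set of naive genes had the larger rise in H9. DPPA3, a maternal factor that protects against DNA methylation, reached 16.4 to 20.5 CPM in naive H9 and 20.1 to 25.5 CPM in naive H1, from 0.115 to 0.341 CPM in primed H9 and 2.07 to 3.25 CPM in primed H1 (3.26 ± 0.46). The naive libraries of the lines overlapped and the primed ones did not. DPPA5, an RNA-binding protein, differed in the naive state instead, with 28.8 to 35.9 CPM in H9 and 7.37 to 9.44 CPM in H1 (2.83 ± 0.27). GDF3 and NODAL, ligands of the TGF-beta family, gave 2.38 ± 0.16 and 2.67 ± 0.26 with naive levels that were lower in H9, and their primed levels were lower by a larger factor. NODAL stood at 0.427 to 1.26 CPM in primed H9 and 21.1 to 25.2 CPM in primed H1, then at 33.9 to 36.6 and 172 to 188 CPM in the naive state. HORMAD1, a meiotic chromosome axis protein, had no count in any H1 library and stood at 17.1 to 20.1 CPM in naive H9.

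Primed markers fell in both lines, and several fell much further in H1. All 23 measured genes of the primed list fell in H9, and 21 fell and 1 rose in H1. The interaction was higher in H9 for 11 (47.8%) and lower for 5 (21.7%), with a median of 0.40. That median was 0.088 without a filter on low counts, 0.14 with all 24 libraries in the fit and 0.22 with library trends with GC and length taken out. In H9 the naive level of these genes was 0.944% to 81.9% of the primed level with a median of 34.1%, and 19 of the 23 stayed above 10%. In H1 the median was 21.2% and 14 stayed above 10%. The list summed to 4872 to 5216 CPM in naive H9 and 2645 to 2680 CPM in naive H1, from 12817 to 13782 and 8803 to 8929 CPM in the primed state.

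SFRP2, a secreted WNT modulator, was at 185, 159 and 189.5 CPM in primed H9 and 78.2, 75.2 and 79.8 CPM in naive H9. In H1 it was at 466, 439 and 463 CPM in primed cells and 0.755, 0.387 and 0.119 CPM in naive cells. It fell in both lines, and the interaction was 8.77 ± 0.20 (adjusted p = 3.17e-25). THY1, the surface antigen CD90 of primed cells, gave 7.22 ± 0.21, with 30.8–31.2 CPM left in naive H9 and 0.238–0.774 CPM in naive H1. PTPRZ1, a receptor phosphatase, gave 5.31 ± 0.13, with 113–135 and 3.33–3.68 CPM left. USP44, a deubiquitinase, was at 206–244 CPM in primed H9 and 173–196 CPM in naive H9, and at 191–209 and 10.3–15.4 CPM in H1 (3.76 ± 0.14). In all 4 genes the naive H9 libraries lay above the naive H1 libraries.

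OTX2 and ZIC2 had lower changes in H9. OTX2, a homeodomain factor of the primed epiblast, was at 141, 144 and 129.6 CPM in primed H9 and 28.8, 28.7 and 26.2 CPM in naive H9, and at 30.9, 40.4 and 34.1 CPM in primed H1 and 67.9, 70.7 and 65.5 CPM in naive H1. It fell in H9 and rose in H1 (-3.27 ± 0.14). ZIC2, a zinc finger factor, fell in both lines, to 5.36–6.46 CPM in H9 and 12.8–15.9 CPM in H1 (-1.28 ± 0.15). DUSP6, a phosphatase induced by ERK signalling, fell in both lines to under 0.3 CPM, and its interaction was not called (1.89 ± 0.99, adjusted p = 0.113), though it was with each line fitted in its own table (1.88, adjusted p = 2.36e-05) and without replicate 1 of naive H1 (3.06, adjusted p = 0.041).

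**Figure D2:**
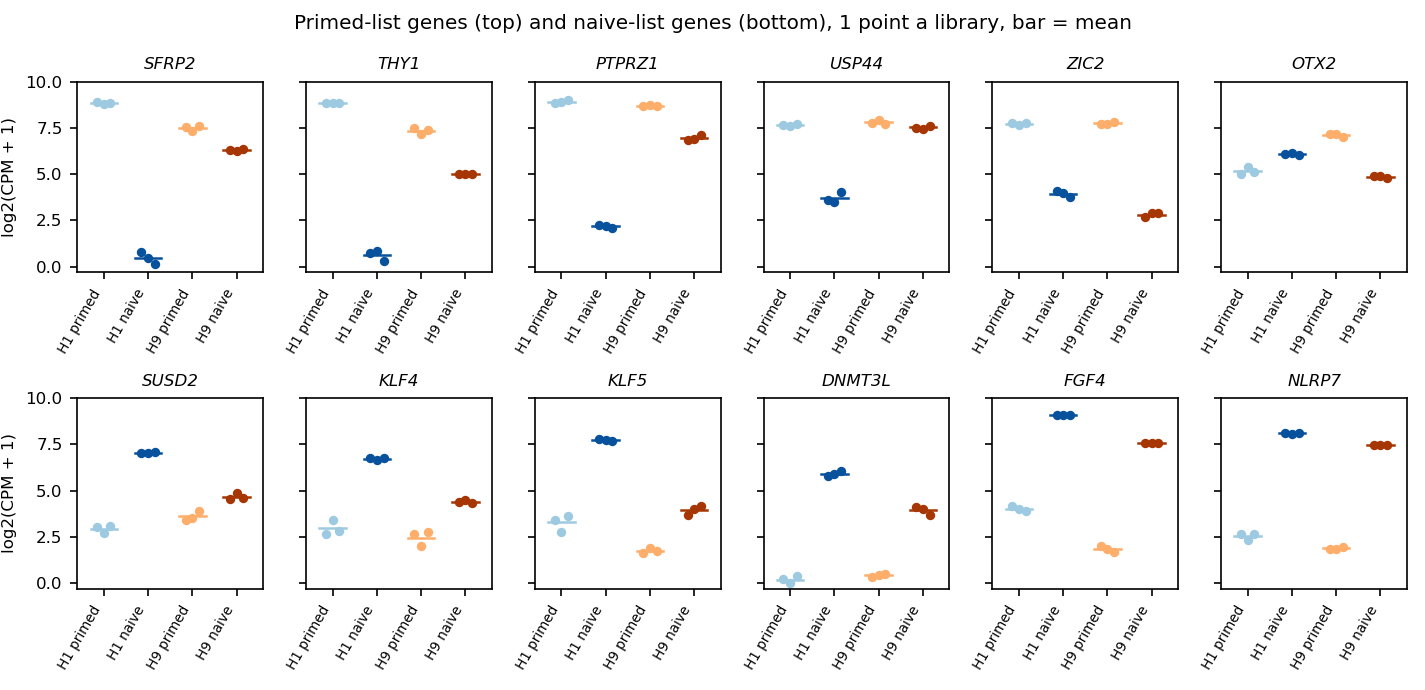
Level in each library, as log2(CPM + 1), of 6 primed genes (top) and 6 naive genes (bottom) in primed and naive H9 and H1, with 1 point a library and a bar at the mean of 3. SFRP2, THY1, PTPRZ1 and USP44 remain higher in naive H9 than in naive H1, and SUSD2, KLF4, KLF5 and DNMT3L reach a lower level in naive H9.

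The summed level of core pluripotency genes stayed high in every group. All 18 reached a mean of 1 CPM in primed H1 and naive H9, and 17 in naive H1 and in primed H9. The 18 core genes summed to between 8405 and 11510 CPM in all 12 libraries, and 6 rose and 11 fell in H9 while 4 rose and 8 fell in H1. The interaction was higher in H9 for 8 (44.4%) and lower for 6 (33.3%). POU5F1, the factor OCT4, had no called interaction (0.12 ± 0.09, adjusted p = 0.279). NANOG was at 62.2–84.8 CPM in primed H9 and 125–152 CPM in naive H9, and at 145–149 and 149–154 CPM in H1 (0.900 ± 0.13). UTF1, a chromatin-associated factor, gave 3.15 ± 0.54, and PRDM14, a repressor that sustains pluripotency, gave -1.17 ± 0.10.

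**Figure D3:**
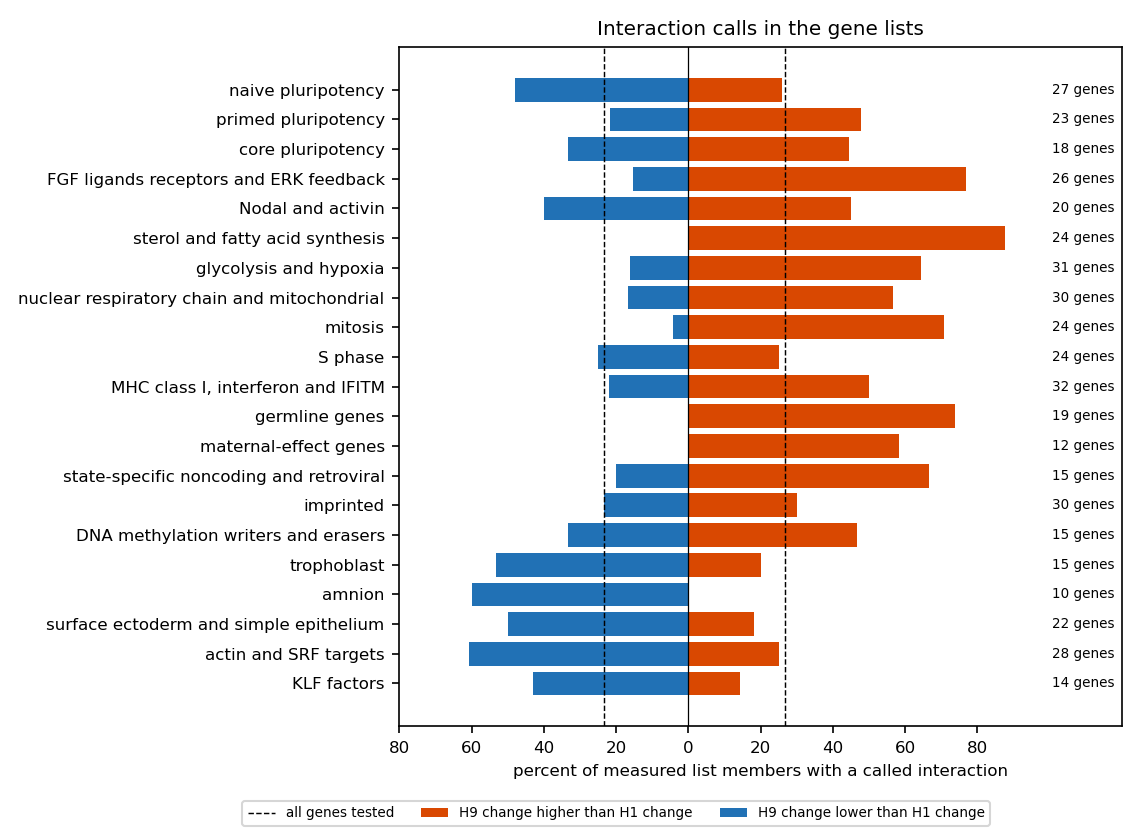
Percent of the measured genes of 21 lists whose interaction was called higher in H9 (orange, to the right) or lower in H9 (blue, to the left), with dashed lines at the 26.7% and 23.4% of all genes tested. The sterol and FGF lists reach 87.5% and 76.9% higher, and the actin and amnion lists 60.7% and 60% lower.

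Genes of FGF signalling fell further in H1. FGF receptors signal through ERK, which induces ETV and FOS family factors and the feedback inhibitors of the Sprouty, SPRED and DUSP families. Of the 26 measured genes of this list, 20 had an interaction higher in H9 (76.9%) and 4 lower (15.4%), with 16 and 3 past 2-fold, and the median was 2.23 beside 0.05 over all genes. In H9 8 rose and 14 fell, and in H1 5 rose and 20 fell, with opposite called directions for 8. In the primed state 18 of the 26 had all H9 libraries below all H1 libraries and 6 had them above, beside 31.2% and 29.7% of all genes, and in the naive state 15 had them above, beside 36.1%.

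The ligand FGF4 was at 2.97, 2.64 and 2.22 CPM in primed H9 and 189, 187 and 189.8 CPM in naive H9. Its levels in H1 were 17.1, 14.9 and 14 CPM in primed cells and 547, 537 and 531 CPM in naive cells, so that H9 was lower in both states while the fold rise was larger in H9 (1.03 ± 0.16). FGF2, the ligand added to most primed cultures, fell in H9 from 200.1–229 to 94.4–113 CPM and rose in H1 from 148–150.01 to 238–247 CPM (-1.695 ± 0.11). Among the receptors, FGFR3 fell in H9 from 99.1, 95.4 and 129.5 CPM to 53.7, 55.9 and 50.4 CPM. In H1 it rose from 25.8, 26 and 29.3 CPM to 256, 279.99 and 306 CPM, and the interaction was -4.395 ± 0.14. FGFR4 went the opposite way, with a rise in H9 and a fall in H1 (1.93 ± 0.15), and FGFR1 fell in both lines, by more in H1 (0.74 ± 0.09).

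The feedback inhibitors included the largest difference of the list. SPRY4 was at 66.2, 65 and 64.5 CPM in primed H9 and 19.5, 24.2 and 19.9 CPM in naive H9. The H1 libraries held 196, 187 and 191 CPM in primed cells and 0.189, 0 and 0.119 CPM in naive cells. It fell in both lines, with an interaction of 9.08 ± 0.28 (adjusted p = 1.19e-21). Naive H1 held 3 counts of it, and the ratio of primed to naive in H1 was 1882 (644 to 9130.1), where the bounds in brackets here and below are the exact 95% interval and cover counting error only. SPRY2 rose in H9 from 18.5–21.1 to 29.3–32.2 CPM and fell in H1 from 65.7–71.3 to 12.2–13.2 CPM (3.07 ± 0.16). DUSP5, a nuclear ERK phosphatase, rose in H9 from 9.52–11.4 to 22.9–24 CPM and fell in H1 from 42.6–50.5 to 3.49–5.03 CPM (4.51 ± 0.21). The ERK-responsive factors ETV5, ETV1 and ETV4 gave 5.396 ± 0.30, 2.78 ± 0.18 and 2.23 ± 0.12. Not every ERK target differed: EGR1 fell in both lines, from 183–208 to 1.91–2.12 CPM in H9 and from 55.7–61.9 to 0.581–1.19 CPM in H1, with no called interaction (-0.39 ± 0.35, adjusted p = 0.397).

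Sterol and fatty acid synthesis genes rose in H9 and mostly did not in H1. SREBP factors drive these genes when cells are short of sterol. Of 24 measured genes, 23 rose and none fell in H9, while 3 rose and 11 fell in H1. The interaction was higher in H9 for 21 (87.5%) and lower for none, 7 of them past 2-fold, with a median of 0.89. All 11 that fell in H1 rose in H9. In primed cells 21 of the 24 had all H9 libraries below all H1 libraries, beside 31.2% of all genes. In naive cells 9 were below and 11 above, beside 34.3% and 36.1%.

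INSIG1, which retains SREBP in the endoplasmic reticulum, was at 42.2, 40.4 and 42.9 CPM in primed H9 and 105, 92.5 and 98 CPM in naive H9. In H1 it was at 98.3, 106 and 93.8 CPM in primed cells and 49.3, 56.3 and 48.1 CPM in naive cells. It rose in H9 and fell in H1, with an interaction of 2.19 ± 0.12 (adjusted p = 2.37e-15). SQLE, the squalene epoxidase, gave 1.41 ± 0.09, and HMGCS1, the synthase of the mevalonate pathway, 1.28 ± 0.09. SCD, the stearoyl-CoA desaturase, gave 1.92 ± 0.08. The factors themselves gave smaller values: SREBF2 gave 0.26 ± 0.10, a call lost in 8 of the 22 alternatives, 5 of which left out 1 library (adjusted p up to 0.119), and SREBF1 rose in both lines with no called interaction (0.06 ± 0.16, adjusted p = 0.791).

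**Figure D4:**
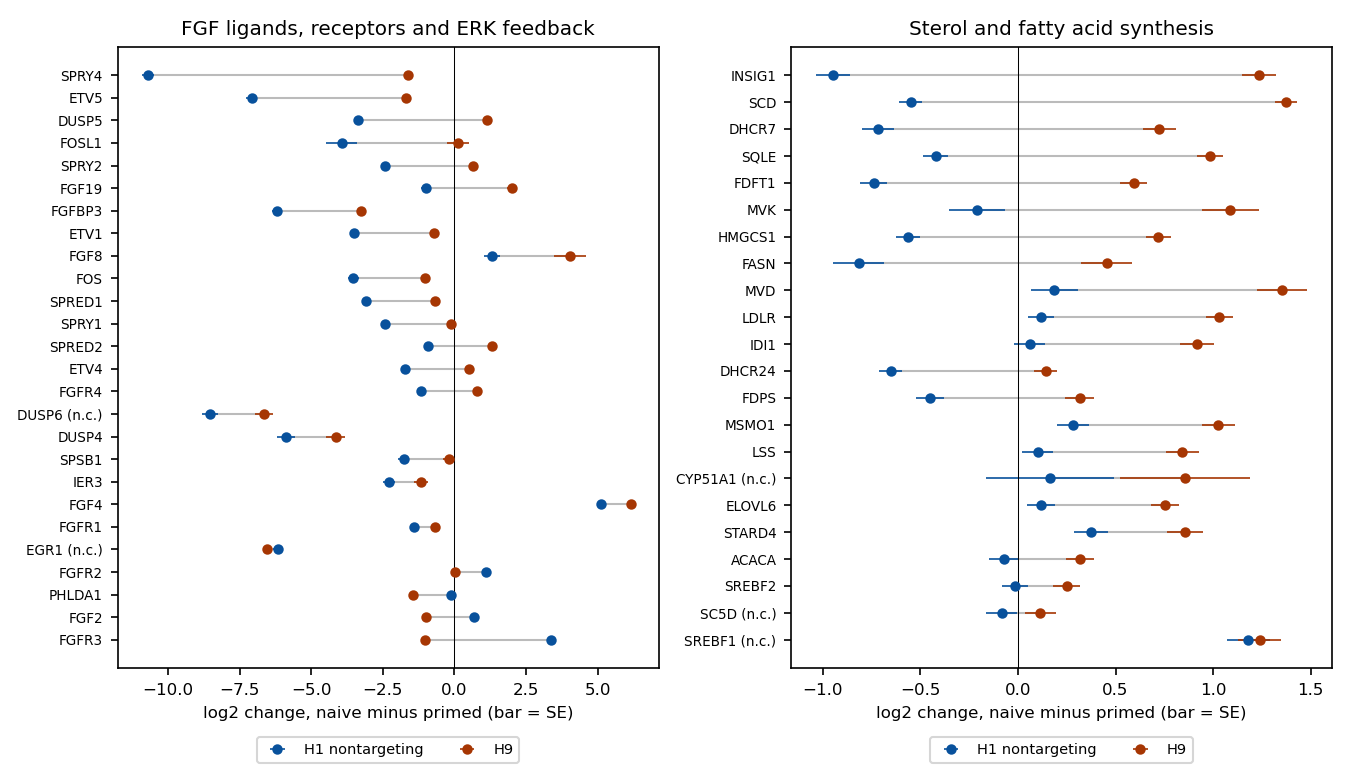
Log2 change from primed to naive with its SE in H1 and H9 for the 26 FGF and ERK genes and 22 of the 24 sterol and fatty acid genes, each row a gene, with n.c. where the interaction was not called. The sterol genes lie right of 0 in H9 and near or left of 0 in H1 apart from SREBF1, and SPRY4 and ETV5 lie far left in H1.

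Nodal and activin genes differed in both directions. Nodal signals through SMAD2 and SMAD3 and induces its own inhibitors LEFTY1 and LEFTY2. Of 20 measured genes, 9 had an interaction higher in H9 (45%) and 8 lower (40%). LEFTY1 rose in H9 from 1.03–1.54 to 30.04–30.8 CPM and in H1 from 10.001–10.2 to 58.9–62.9 CPM (1.97 ± 0.23). LEFTY2 rose from 2.61–3.75 to 269–309 CPM in H9 and from 11.8–12.7 to 1907–1940.4 CPM in H1 (-0.78 ± 0.16). CER1, a secreted Nodal inhibitor, reached 7.58–9.1 CPM in naive H9 and 187–214 CPM in naive H1 (-3.06 ± 0.87). All its counts in primed H9 lay in replicate 1, and without that library the value was 0.98 and not called (adjusted p = 0.426). NODAL, LEFTY1, LEFTY2 and CER1 were all lower in naive H9 than in naive H1, whatever the sign of the interaction. TGIF1, a repressor of SMAD targets, fell in both lines and gave -0.84 ± 0.10.

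More trophoblast and amnion genes rose in H1 than in H9. Naive human cells can form trophoblast, and amnion is an early extraembryonic fate of primed cells. Of 15 measured trophoblast genes, 8 had an interaction lower in H9 (53.3%) and 3 higher (20%), with a median of -3.12, and 10 rose in H1 against 6 in H9. Of 10 measured amnion genes, 6 were lower in H9 (60%) and none higher, with a median of -3.66. In naive cells 12 of the 15 trophoblast genes and all 10 amnion genes had all H9 libraries below all H1 libraries, beside 34.3% of all genes. The filter on low counts bears on this. Of 14 amnion markers, 11 reached a mean of 1 CPM in naive H1 and 5 in each other group. Of 25 trophoblast markers, 13 did in naive H1, 8 in naive H9 and 7 in primed cells of each line. Genes that passed the filter only through naive H1 lie lower in naive H9 by that choice. These counts and medians are therefore no test of direction. Over 25 trophoblast markers, the summed level was 320 to 335 CPM in naive H1, 140 to 142 CPM in naive H9, 77.9 to 96.1 CPM in primed H1 and 55.7 to 66.5 CPM in primed H9. TFAP2C, also a member of the naive list with its naive levels given there, made up most of the sum in naive H1 and in naive H9. The sums are therefore no measure of trophoblast content. CGB3, CGB5 and CGB8 were at 0 in naive H1, and CGA, CGB8, ELF5, TP63 and VTCN1 in naive H9. Over 14 amnion markers, the sums were 313 to 319 CPM in naive H1 and 55.7 to 65.4 CPM in naive H9, against 72.1 to 76.2 and 98.3 to 114 CPM in the primed state. IGFBP5, with its naive levels given below, made up most of the sum in naive H1. GABRP, also given below, made up a large part of the sum in primed H9. The amnion sums are therefore no measure of amnion content. The part of cells of these types in the interactions of other genes was not tested.

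TFAP2A, a factor of trophoblast and amnion, was at 0.777, 0.459 and 1.11 CPM in primed H9 and 4.14, 4.6 and 4.25 CPM in naive H9, and at 0.331, 0 and 0.20 CPM in primed H1 and 32, 31.4 and 32.9 CPM in naive H1 (-4.79 ± 0.57). GATA3, a trophoblast factor named after its values were seen, was at 0.303–0.497 CPM in naive H9 and 17.1–19.5 CPM in naive H1. Both reached their highest level in naive H1. KRT7, a keratin of simple epithelia, fell in H9 from 10.1–16 to 1.06–3.11 CPM and was at 5.8–9.0 and 8.21–11.5 CPM in H1 (-3.12 ± 0.36). ABCG2, a transporter of the trophoblast surface, went the other way (4.11 ± 0.47). GABRP, a GABA receptor subunit of amnion cells, fell in H9 from 47.7–51.7 to 1.01–1.62 CPM and in H1 from 12.9–14.2 to 7.49–9.72 CPM (-4.47 ± 0.25). IGFBP5, which binds insulin-like growth factors, was at 12.5–18.9 CPM in naive H9 and 173–179 CPM in naive H1 (-3.11 ± 0.19). The trophoblast result depends on genes of low level: with a filter at 5 CPM 4 of 8 measured genes were lower in H9 and the median was 0.02, and 4 of 9 were, with a median of 0.46, when each line was fitted on its own. Of 22 measured genes of surface ectoderm and simple epithelium, 11 were lower in H9 (50%) and 4 higher (18.2%), KRT19 with -1.69 ± 0.14 and KRT8 with -1.29 ± 0.11. The epithelial list summed to 5411 to 5639 CPM in naive H1 and 3425 to 3521 CPM in naive H9.

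Most measured germline genes that DNA methylation represses rose in H9, and 10 of 19 fell in H1. Of 19 measured genes, 14 had an interaction higher in H9 (73.7%) and none lower, with a median of 1.78. In H9 13 rose and 3 fell, and in H1 4 rose and 10 fell. Of 34 listed genes, these 19 passed the filter on low counts. HORMAD1, with no count in H1 and 2 counts in primed H9, passed only through naive H9. Genes that passed this way lie higher in naive H9 by that choice. These counts and medians are therefore no test of direction. With a filter at 5 CPM, 8 of 10 measured genes were higher in H9. PIWIL2, a piRNA pathway protein, rose in H9 from 5.72, 5.74 and 4.86 CPM to 8.8, 8.57 and 8.28 CPM. It fell in H1 from 36.8, 35 and 37.2 CPM to 5.66, 6.77 and 6.3 CPM (3.19 ± 0.22). The lines lay closer together in the naive state than in the primed state. MAEL, also of the piRNA pathway, was at 0.0853–0.344 CPM in primed H9, 2.12–3.4 CPM in naive H9, 0.70–1.77 CPM in primed H1 and 0–0.0944 CPM in naive H1. DPEP3, a testis dipeptidase, gave 1.75 ± 0.19.

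Maternal-effect genes and noncoding or retroviral transcripts leaned the same way. Of 12 measured maternal-effect genes, 7 were higher in H9 (58.3%) and none lower, with a median of 2.20, or 1.15 without a filter on low counts. OOEP, a subunit of the oocyte's subcortical complex, gave 3.21 ± 0.63. Of 15 noncoding and retroviral genes with known state dependence, 10 were higher in H9 (66.7%) and 3 lower (20%), with a median of 2.49, or 0.73 without that filter. The filter passed 12 of 21 listed maternal-effect genes and 15 of 20 listed noncoding and retroviral genes. Any that passed only through naive H9 lie higher there by that choice, so these counts and medians are no test of direction. ERVH48-1, which encodes the placental protein suppressyn from an endogenous retrovirus, was at 96.4, 86.4 and 85.6 CPM in primed H9 and 853, 826 and 785 CPM in naive H9. Its levels in H1 were 106, 88.9 and 97.4 CPM in primed cells and 22.9, 20.6 and 23.4 CPM in naive cells. It rose in H9 and fell in H1 (5.33 ± 0.12). LINC01108, a noncoding RNA, rose in H9 from 3.89–4.7 to 109–124 CPM and fell in H1 from 50.5–55 to 30.3–36.6 CPM (5.42 ± 0.16). LINC-ROR, a noncoding RNA of reprogramming, gave 7.29 ± 0.36.

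A set of genes had almost no counts in primed H9 and was present in the other 3 groups. With at most 3 counts over the 3 libraries of primed H9 and a mean of at least 2 CPM in each other group, 23 genes were found, chosen after their values were seen, so that no test is given. 19 are protein coding, 6 carry a ZNF symbol, and 11 had no count in primed H9. Of the 16265 genes tested, 13506 are protein coding and 437 carry a ZNF symbol. By this choice all 23 rose in H9. In H1, which the choice leaves free to move either way, 14 rose, 3 fell and 6 were not called. Over all genes tested, 32.1% rose and 34.1% fell in H1. In the naive state 17 had all H9 libraries below all H1 libraries, beside 34.3% of all genes, and 6 overlapped.

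IRAK4, a kinase of Toll-like receptor signalling, was at 0, 0.115 and 0 CPM in primed H9 and 9.5, 10.2 and 10.1 CPM in naive H9, and at 10.4, 12.8 and 12.4 CPM in primed H1 and 18.5, 18.6 and 16.9 CPM in naive H1. PUS7L, a pseudouridine synthase, was at 0.141, 0 and 0 CPM in primed H9 and 18.4, 15.5 and 20.4 CPM in naive H9, with 43.2–48 and 54.2–61.8 CPM in H1. The ratio of naive to primed in H9 was 343 (61 to 13583) for IRAK4 on 1 count in primed cells and 315 (86.9 to 2612) for PUS7L on 2. The 5′ ends of PUS7L and IRAK4 lie 127 bases apart on opposite strands of chromosome 12, so that they share a promoter region. 3 further pairs of the set are such neighbours on opposite strands: TYW3 and CRYZ, with 5′ ends 256 bases apart, ZNF528-AS1 and ZNF528, 83 apart, and ZNF667-AS1 and ZNF667, 815 apart. The gene bodies of TYW3 and CRYZ and of the ZNF667 pair overlap, and whether counting used strand is not known, so their counts may be shared. The gene bodies of the other pairs do not overlap.

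The stretch between PUS7L and IRAK4 and the upstream stretches of ZNF501 and SOHLH2 are shown because these promoters lie at genes with at most 3 counts in primed H9, and CG dinucleotides, the sites of DNA methylation, are in capitals. The sequences are from RefSeq on GRCh38.p14 and leave out annotated exons: IRAK4 at chr12:43758818-43758943, plus strand, ZNF501 at chr3:44729385-44729595, plus strand and SOHLH2 at chr13:36214616-36214806, minus strand. Each reads 5′ to 3′ on the gene's strand.
IRAK4: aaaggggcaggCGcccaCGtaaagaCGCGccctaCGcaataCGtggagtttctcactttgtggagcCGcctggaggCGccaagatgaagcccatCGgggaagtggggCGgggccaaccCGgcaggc
ZNF501: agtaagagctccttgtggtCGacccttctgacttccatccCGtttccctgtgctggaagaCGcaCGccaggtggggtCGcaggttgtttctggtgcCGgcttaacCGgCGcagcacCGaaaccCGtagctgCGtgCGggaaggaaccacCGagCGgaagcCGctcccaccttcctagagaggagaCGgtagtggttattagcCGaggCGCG
SOHLH2: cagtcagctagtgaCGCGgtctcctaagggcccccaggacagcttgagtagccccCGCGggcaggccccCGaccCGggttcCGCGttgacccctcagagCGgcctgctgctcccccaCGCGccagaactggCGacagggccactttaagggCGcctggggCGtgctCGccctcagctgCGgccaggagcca
The 300-base windows around these starts (250 before and 50 after) hold 28, 27 and 23 CG dinucleotides, which is reached by 25.9%, 27.9% and 35.6% of all 27305 windows, against a median of 14. No methylation was measured in these libraries. ZNF501, a zinc finger protein, was at 0, 0.115 and 0 CPM in primed H9, 12.3, 13.7 and 12 CPM in naive H9 and 7.97–10.02 and 8.32–13.5 CPM in primed and naive H1. SOHLH2, a germ cell factor, was at 0 in primed H9 and 3.18–5.76 CPM in naive H9, at least 50.5-fold higher when set against 3 counts over the group.

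**Figure D5:**
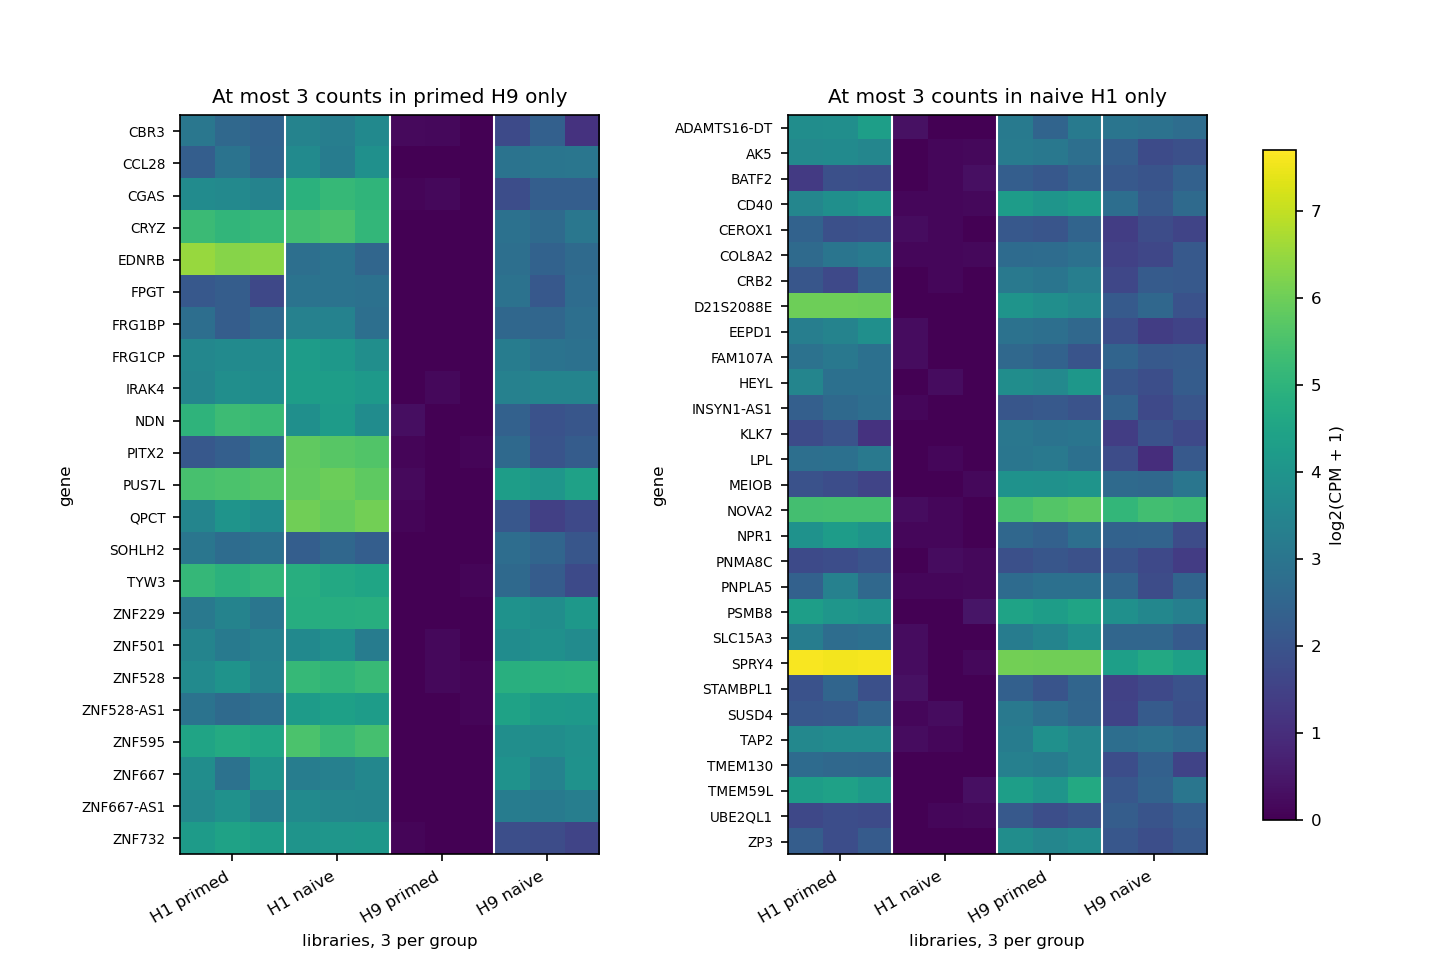
Heat map of log2(CPM + 1) in the 12 libraries for the 23 genes with at most 3 counts in primed H9 only (left) and the 29 genes with at most 3 counts in naive H1 only (right). The left panel is near 0 only in primed H9 and the right panel only in naive H1, which is how the genes were chosen.

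The opposite set was larger and belonged to naive H1. By the same counts, 29 genes were nearly absent from naive H1 only, against 1 gene in primed H1 only and 2 in naive H9 only. Of the 29, 25 are protein coding, beside 13506 of the 16265 genes tested. By this choice all fell in H1. In H9 20 fell and 9 were not called, beside 25.5% of all genes that fell in H9. D21S2088E was at 61.1–63.3 CPM in primed H1 and 0 in naive H1, at least 604-fold lower. NOVA2, a neuronal splicing factor, was at 42.7, 49 and 53.4 CPM in primed H9 and 33.2, 40.1 and 37.6 CPM in naive H9. The H1 libraries held 41.3, 42.4 and 42.2 CPM in primed cells and 0.189, 0.0968 and 0 CPM in naive cells (8.13 ± 0.34). The other 3 groups lay between 33.2 and 53.4 CPM, and naive H1 stood apart from them, with a ratio of primed to naive in H1 of 409 (139.7 to 1988) on 3 counts.

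TAP2 and PSMB8, neighbours in the MHC region of chromosome 6 with 5′ ends 5923 bases apart on the same strand, were both in this set. TAP2, a subunit of the peptide transporter that loads MHC class I, was at 8.34–13.4 and 5.52–6.46 CPM in primed and naive H9, and at 11–12.1 and 0–0.189 CPM in H1. PSMB8, a subunit of the immunoproteasome, was at 8.92–13.5 CPM in naive H9 and 0–0.356 CPM in naive H1. Both were named after their values were seen. With 3 counts of each in naive H1, the ratio of primed to naive in H1 was 114 (38.7 to 555) for TAP2 and 160.1 (54.4 to 779) for PSMB8. The upstream stretches of NOVA2 (chr19:45973866-45974115, minus strand) and TAP2 (chr6:32838823-32838989, minus strand) are shown for comparison with those above, on the same build and with CG in capitals.
NOVA2: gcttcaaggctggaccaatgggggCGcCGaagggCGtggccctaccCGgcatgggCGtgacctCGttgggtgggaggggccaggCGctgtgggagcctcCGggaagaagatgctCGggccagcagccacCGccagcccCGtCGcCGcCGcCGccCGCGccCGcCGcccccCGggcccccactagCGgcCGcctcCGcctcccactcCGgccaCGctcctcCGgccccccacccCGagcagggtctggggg
TAP2: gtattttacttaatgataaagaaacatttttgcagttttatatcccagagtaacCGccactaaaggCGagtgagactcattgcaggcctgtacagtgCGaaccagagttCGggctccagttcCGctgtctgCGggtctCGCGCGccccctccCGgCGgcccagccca
Their windows hold 30 and 24 CG dinucleotides, reached by 22.1% and 33.7% of all windows.

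Genes of antigen presentation fell in H1 in greater number than in H9. Of 32 measured genes of MHC class I, interferon and IFITM, 15 fell and 9 rose in H1, and 8 fell and 13 rose in H9. The interaction for 16 was higher in H9 (50%) and for 7 lower (21.9%), with a median of 0.55. In naive cells 20 of the 32 had all H9 libraries above all H1 libraries, beside 36.1% of all genes. B2M, the light chain of MHC class I, was at 99, 87.8 and 85.2 CPM in primed H9 and 130.3, 127 and 119.6 CPM in naive H9. In H1 it was at 102, 101 and 100.4 CPM in primed cells and 24.9, 23 and 24.8 CPM in naive cells. It rose in H9 and fell in H1 (2.53 ± 0.12). TAP1, the partner of TAP2, gave 3.79 ± 0.27. BST2, an interferon-induced restriction factor, rose in both lines and went the other way, from 12.5–14.7 to 286–306 CPM in H1 and from 172–199 to 399–479 CPM in H9 (-3.19 ± 0.12).

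Glycolysis and hypoxia genes rose in greater number in H9. Of 31 measured genes, 20 were higher in H9 (64.5%) and 5 lower (16.1%), with a median of 0.76, and 17 rose and 5 fell in H9 while 11 rose and 15 fell in H1. VEGFA, an angiogenic factor induced by hypoxia, was at 96.4–106 CPM in primed H9 and 87.3–98.4 CPM in naive H9. In H1 it fell from 44.7–47.2 to 4.53–5.81 CPM (3.04 ± 0.15). HK1, the hexokinase that starts glycolysis, and SLC2A3, a glucose transporter, gave 2.02 ± 0.09 and 1.91 ± 0.08, and ALDOC, an aldolase, 2.09 ± 0.11. Of 30 nuclear genes of the respiratory chain and mitochondria, 17 were higher in H9 (56.7%) and 5 lower (16.7%), with a median of 0.32, and 24 rose in H9 and 16 in H1. PPARGC1A, a coactivator of mitochondrial biogenesis, fell in H9 from 8.97–10.9 to 4.6–6.77 CPM and rose in H1 from 3.31–5.46 to 41–46.1 CPM (-3.96 ± 0.25). CYC1, a subunit of complex III, and ATP5MC1, of ATP synthase, gave 0.89 ± 0.11 and 1.07 ± 0.14.

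Mitosis genes fell in greater number in H1. Of 24 measured genes, 17 were higher in H9 (70.8%) and 1 lower (4.17%), with a median of 0.67. In H1 22 fell and 1 rose, and in H9 10 fell and 2 rose. TOP2A, the topoisomerase of dividing cells, was at 802, 869.8 and 771 CPM in primed H9 and 691, 672 and 757 CPM in naive H9. Its levels in H1 were 763, 791 and 781 CPM in primed cells and 250.4, 234 and 228 CPM in naive cells (1.51 ± 0.09). AURKB, BIRC5 and CDC20, which act in chromosome segregation, gave 1.53 ± 0.12, 1.41 ± 0.12 and 1.29 ± 0.11. The histone variant CENPA was the 1 gene lower in H9 (-1.01 ± 0.17). Of 24 S phase genes, 6 were higher and 6 lower (25% each). Of 24 p53 targets, 12 were higher in H9 (50%) and 5 lower (20.8%), with 1.95 ± 0.22 for PHLDA3, 1.43 ± 0.21 for the cell cycle inhibitor CDKN1A and -0.72 ± 0.10 for the proapoptotic PMAIP1.

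Among writers and erasers of DNA methylation, 7 of 15 were higher in H9 (46.7%) and 5 lower (33.3%). TET2, a dioxygenase that oxidises methylcytosine, was at 7.14, 7.46 and 8.36 CPM in primed H9 and 3.23, 2.73 and 2.87 CPM in naive H9. The H1 libraries held 2.24, 1.48 and 1.9 CPM in primed cells and 35.7, 31.6 and 28.5 CPM in naive cells. It fell in H9 and rose in H1 (-5.41 ± 0.28). TET1 gave 1.07 ± 0.14, and the de novo methyltransferase DNMT3B 0.66 ± 0.07. Of 30 measured imprinted genes, 9 were higher in H9 (30%) and 7 lower (23.3%), near the shares of all genes. 3 genes of the Prader-Willi region of chromosome 15 were low in primed H9. NDN was at 0.212, 0 and 0 CPM in primed H9 and 4.25, 2.86 and 3.18 CPM in naive H9, and at 31.4, 37.8 and 36.2 CPM in primed H1 and 13.4, 17.8 and 12.5 CPM in naive H1 (6.39 ± 0.52), with a ratio of naive to primed in H9 of 40.04 (13.3 to 198) on 3 counts in primed cells. SNRPN was at 0.171–0.918 and 2.61–3.61 CPM in H9 and 202–214 and 119.7–135 CPM in H1 (3.28 ± 0.35). MAGEL2, named after its values were seen, was at 0 in primed H9, 1.11–1.62 CPM in naive H9, and 11.4–15.2 and 5.52–6.3 CPM in H1. All 3 rose in H9, fell in H1 and remained lower in naive H9 than in naive H1. The stretch upstream of NDN (chr15:23687331-23687555, minus strand, RefSeq, GRCh38.p14, CG in capitals) belongs to a window with 35 CG dinucleotides, reached by 14% of all windows.
NDN: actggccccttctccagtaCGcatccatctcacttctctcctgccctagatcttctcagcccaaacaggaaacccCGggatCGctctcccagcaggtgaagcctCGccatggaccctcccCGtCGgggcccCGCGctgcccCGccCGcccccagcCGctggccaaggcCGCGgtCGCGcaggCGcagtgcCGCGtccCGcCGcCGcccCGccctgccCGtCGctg

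Actin and SRF target genes leaned the other way. Of 28 measured genes, 17 were lower in H9 (60.7%) and 7 higher (25%), with a median of -0.42. AMOTL2, a junction protein that binds YAP, fell in H9 from 79.3, 67.7 and 88.7 CPM to 8.8, 8.95 and 8.17 CPM. In H1 it was at 74.6, 76.3 and 71.9 CPM in primed cells and 74.7, 68.9 and 74.4 CPM in naive cells, and the interaction was -3.16 ± 0.15. CCN2, a matricellular YAP and SRF target, ANXA3 and ANXA2, which are annexins, gave -2.37 ± 0.12, -3.09 ± 0.18 and -1.67 ± 0.10.

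Beyond the lists, the 12 largest fitted differences in each direction were taken among protein coding genes with a called interaction, at least 5 CPM in 1 group and library differences that did not overlap between the lines. Of the 12 higher in H9, EDNRB, ZNF667, ZNF595, SOHLH2, CRYZ and ZNF229 had no count in primed H9, and ZNF560 and ZNF501 had 1 each, so their fold changes are lower bounds or are left out, and their place among the 12 depends on the fit and is not determined by the counts. EDNRB, the endothelin receptor B, was at 0 in primed H9 and 5.96, 4.35 and 5.31 CPM in naive H9, at least 57.7-fold higher. Its levels in H1 were 91, 77.8 and 80.8 CPM in primed cells and 6.04, 6.58 and 4.87 CPM in naive cells. It rose in H9 and fell in H1 to the same range. ZNF229 reached 12.6–16.2 CPM in naive H9, at least 159-fold, and ZNF595 12.6–13.8 CPM, at least 146-fold. CNTFR, the receptor of ciliary neurotrophic factor, rose in H9 from 1.84–1.96 to 10.9–11.7 CPM (2.56 ± 0.21) and fell in H1 from 32.5–34.2 to 0.29–1.19 CPM (-5.51 ± 0.24), with an interaction of 8.07 ± 0.32.

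Of the 12 lower in H9, several were near 0 outside naive H1. GREB1L, a coregulator of retinoic acid signalling, was at 0.0829, 0.148 and 0 CPM in primed H1 and 30.8, 33.7 and 34.9 CPM in naive H1. In H9 it was at 3.32, 3.21 and 4.35 CPM in primed cells and 1.72, 0.746 and 0.318 CPM in naive cells (-10.59 ± 0.57). The ratio of naive to primed in H1 was 476 (131 to 3934) on 2 counts in primed cells. GADL1, an amino acid decarboxylase, was at 84.8–92.1 CPM in naive H1 and at most 0.918 CPM in any H9 library (-9.88 ± 0.62). CCER2 had no count in primed H1 and 14.9–18.4 CPM in naive H1, at least 156-fold higher, with 0.101–0.531 CPM in naive H9. The growth factor FGF1 was at 19.96–21.2 CPM in naive H1 and 1.01–1.12 CPM in naive H9 (-7.77 ± 0.59). TBXT, the mesoderm factor brachyury, was at 8.2–10.9 CPM in naive H1 and 0 in naive H9.

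Opposite changes were ranked by the smaller of a gene's absolute changes in H9 and H1, which puts EDNRB and CNTFR, above, and DOK6, SEMA6D, CDH9 and ATP12A first. GREB1L and GADL1, with larger interactions, fell by 1.93 and 1.77 in H9 on the log2 scale. DOK6, an adaptor of receptor kinases, fell in H9 from 1.62, 2.75 and 1.96 CPM to 0, 0.249 and 0 CPM and rose in H1 from 3.4, 3.4 and 2.3 CPM to 29.8, 24.7 and 27 CPM (-7.75 ± 0.59), with a ratio of primed to naive in H9 of 27.7 (7.38 to 233) on 2 counts in naive cells. SEMA6D, an axon guidance semaphorin, fell in H9 from 13.2–15.1 to 1.12–2.44 CPM and rose in H1 from 1.33–3.4 to 16.8–21.7 CPM (-5.86 ± 0.33). CDH9, a cadherin, gave -5.52 ± 0.64. ATP12A, a proton and potassium pump, fell in H9 from 5.86–7.46 to 0.87–1.11 CPM and rose in H1 from 4.89–7.68 to 45–54.7 CPM (-5.605 ± 0.30). EDNRB, CNTFR, DOK6, SEMA6D, CDH9 and ATP12A overlap a gene on the other strand, as do SPRY4, THY1, GREB1L, FGF1 and TET2, so reads of both genes may be counted together. Such overlap is common, with 9295 of the 16265 genes tested. The interaction was called for 48.7% of these 9295 and 51.8% of the rest.

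Differences in change were spread over the autosomes. Chromosome medians of the interaction ran from -0.14 on chromosome 13 to 0.15 on chromosome 15. In 618 overlapping windows of 50 neighbouring genes, 47 medians were above 0.3 and 22 below -0.3. Adjacent windows share genes, so these are not counts of separate regions. The highest median was 0.74 on chromosome 17 from HOXB-AS1 to MBTD1, and the lowest was -0.50 on chromosome 20 from KIZ to MAPRE1. The share called differed with the class of gene: 54.4% of protein coding genes, 31.6% of long noncoding genes and 25.1% of pseudogenes. Of 437 genes with a ZNF symbol, 41.4% were lower in H9 and 12.1% higher, with a median of -0.33, a median change of 0.39 in H1 and 0.02 in H9. The interaction moved with GC content. In the third of genes with the highest GC, 34.2% were higher and 18.6% lower in H9, and in the third with the lowest, 20% and 28.5%. With library trends with GC and length taken out, the FGF list had 20 genes higher and 4 lower in H9 with a median of 2.08, the sterol list 21 and none with 0.90, the germline list 14 and none with 1.95, and the actin list 7 and 18 with -0.69.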

How the data were processed

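RNA was extracted with the RNeasy kit, and libraries of polyadenylated RNA were prepared with the TruSeq Stranded mRNA kit, per the labels' protocols. Reads were aligned with HISAT2 to GRCh38, per the submitters' processing notes. For aligner version, counter, annotation and strand use, nothing was given in the sources used here. The authors deposited whole-number counts per gene in 2 tables, 1 for each line, which were joined by Ensembl ID. Of the joined genes, 2218 had no position in GENCODE 29 and were left out, and 27 columns of per-sample or other values were not used. Library totals, 7317419 to 15504896 counts, set the precision of each level.

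The counts were tested with edgeR 4.0.16 (R 4.3.3): filterByExpr, TMM scaling, quasi-likelihood F-tests over the 12 libraries with 1 coefficient a group, Benjamini-Hochberg adjustment over all genes tested and a threshold of 0.05. A difference of at least 2-fold was tested with glmTreat. SEs are the absolute log2 value over the root of F. Where a group had no counts, a fold is a bound set against 3 counts over it. The fit was tested on simulated data. Alternatives used DESeq2 1.42.0, other filters and scalings, GC and length trends, a replicate block and each library left out in turn. All 3 libraries of a group differed beyond sampling noise, with a chi-square per degree of freedom between replicates of 2.44 to 9.16. Pairs in primed H9 gave 6.93 to 9.16, pairs in naive H9 3.56 to 4.97 and pairs in the H1 groups 2.44 to 3.86. The 4 groups shared 1 estimate of spread per gene.

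Named genes are, among protein-coding calls of at least 5 CPM in a group whose 9 library differences in 1 line all lie on 1 side of those in the other, the 12 highest and 12 lowest interactions and the 6 largest opposite changes, then up to 4 genes per list by smallest adjusted p, and any naive, primed or core gene. Other genes named were chosen after their values were seen. Some list members are not reported here by name and stay in the lists' counts. The members and lists were chosen with earlier results of these data known, and no list is independent evidence of its direction.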

Additional observations from a re-analysis of the deposited data

Results flagged for a closer look

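The change from primed to naive differed between the lines for 8138 genes by edgeR's quasi-likelihood test of the difference itself, and by at least 2-fold for 2251. Both lines had a called change in opposite directions for 1301. Ranked by the smaller of a gene's absolute changes in H9 and H1, 6 of these genes are given, tested in the same fit. DOK6 gave -7.75, SEMA6D -5.86, CDH9 -5.52 and ATP12A -5.60 on the log2 scale, each with a fall in H9 and a rise in H1. CNTFR gave 8.07, with a rise in H9 and a fall in H1. EDNRB had no count in primed H9, and its difference set against 3 counts over that group was 9.67. Line, nontargeting construct, doxycycline and count table cannot be told apart in any of them.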

How the results depend on the processing

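The interaction was called for 7134 to 8770 genes under the 22 alternatives. These kept 84.2% to 99.2% of the 8138 calls, and no kept call changed sign. The lowest count and share came from the filter at 5 CPM, and leaving out 1 library gave 7621 to 8079 calls. The replicate block gave 7809 calls, and 8770 with GC and length trends removed. Same-numbered libraries mostly did not deviate together (r from -0.369 to 0.440, 1 of 6 pairs over 0.1). With 6 pairs this does not decide whether the numbers pair the samples. In H9, naive 3 with primed 2 gave 0.513 and naive 2 with primed 3 gave 0.480. These stand beside 0.440 for naive 1 with primed 1, and every other H9 pair was negative. In H1 all pairs lay between -0.066 and 0.050. A pairing of the H9 libraries across numbers was not tested, and the fit ignores any. With each line fitted in its own table, 585 genes were at least 2-fold lower in H9 in place of 889, and without a filter on low counts the Pearson r between the lines was 0.241 in place of 0.457. For CER1, whose counts in primed H9 all lay in replicate 1, leaving out 1 library gave -3.62 to 0.98. For SREBF1, not called at 0.06, the same gave -0.087 to 0.248, and the value was -0.11 with GC and length trends removed and -0.10 with the replicate block as well. The cause was not tested. Of 127 named genes, TFAP2C, OLAH, SREBF2 and CER1 lost their call in at least 1 alternative. Higher calls made up 53.3% of all calls, 51.7% with DESeq2's size factors or its Wald test and 49.4% above 5 CPM. Genes with few counts limit the lists of trophoblast, amnion, germline and maternal-effect genes.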

Other observations

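BMP and WNT genes were called in both directions, with WNT shares near the 26.7% higher and 23.4% lower of all genes. Of 17 measured BMP genes, 6 were higher in H9 (35.3%) and 5 lower (29.4%). ID3, a target of BMP that inhibits helix-loop-helix factors, rose in H9 and fell in H1 (5.02 ± 0.24), with 2.17 to 5.11 CPM in naive H1 and 49.9 to 62.4 CPM in naive H9. The ligand BMP2 fell in H9 to 0.910 to 2.02 CPM and rose in H1 to 37.0 to 44.0 CPM (-4.86 ± 0.30). Of 23 measured WNT genes, 6 were higher and 6 lower in H9 (26.1% each), with TNFRSF19 at -4.03 ± 0.34 and the receptor FZD7 at 1.39 ± 0.12. Of 14 Krüppel-like factors, 6 were lower in H9 (42.9%) and 2 higher (14.3%), with KLF7 at -1.42 ± 0.12 and KLF10 at 1.65 ± 0.14.

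Of 15 measured fibroblast and mesenchyme genes, 8 were higher in H9 (53.3%) and 4 lower (26.7%). FN1, which encodes fibronectin, rose in both lines and by more in H1 (-2.12 ± 0.09), while COL1A1 fell in both and by more in H1 (1.98 ± 0.18). In H1 4 of the 15 rose and 9 fell, and in H9 6 rose and 6 fell. The 21 markers of the list summed to 4333 to 4392 CPM in naive H1 and 1966 to 2007 CPM in primed H1. The sums were 1218 to 1457 CPM in primed H9 and 1322 to 1483 CPM in naive H9. A mean of 1 CPM was reached by 15 of the 21 in primed H1, 10 in naive H1, 11 in primed H9 and 13 in naive H9. The sum thus rose in H1 while more members fell than rose, and it is no measure of mesenchyme content. FAP was at 0 in every library.

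Some genes were nearly absent from 1 line in both states, which leaves no interaction to test. With at most 3 counts in each H1 group and at least 2 CPM in each H9 group, 3 genes were found, among them CHCHD2, a mitochondrial protein, and ZNF717. The reverse held for 22 genes, of which 18 are pseudogenes and 2 protein coding. Of the 16265 genes tested, 1132 are pseudogenes and 13506 protein coding.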
